A study of Mus musculus with 6 samples.

Results

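The TEAD transcription factors (Tead1, Tead2, Tead3 and Tead4), their co-activators YAP (Yap1) and TAZ (Wwtr1), the kinases LATS1 and LATS2 (Lats1, Lats2) and 2 matricellular genes of the CCN family (Ccn1, Ccn2) were measured by RNA-seq in small intestinal organoids. The 10 genes were chosen by name, and all 10 were among the 21397 genes of the table. Organoids were grown from crypts of Fpr2f/f mice, in which the Fpr2 gene is flanked by loxP sites and, with no Cre present, left intact. Culture lasted 5 days in the presence of MMK-1 at 1 μmol/L or of the vehicle, 0.1% DMSO (control). MMK-1 is a synthetic peptide that activates the receptor FPR2. There were 3 libraries in each group, both groups carried the floxed allele, each sample pooled organoids of several mice, and the labels give neither age nor sex. For MMK-1, the treatment label gives the dose in millimoles and the protocol text in micromoles, and the latter, which the study's methods also give, was used. Organoids of this kind are grown from isolated crypts, without the tissue that surrounds them in the animal, and markers of other cell types are given below.

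In the Hippo pathway, LATS kinases phosphorylate YAP and TAZ, which are then held in the cytoplasm or degraded. When the kinases are inactive, YAP and TAZ enter the nucleus and bind TEAD proteins, the DNA-binding partners through which they activate genes such as Ccn1 and Ccn2. In the intestinal epithelium the pathway is best known for its part in regeneration after injury, when YAP supports a transient repair state and later gives way to the normal stem cell programme. The transcript levels measured here say nothing about phosphorylation, location or activity of these proteins.

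The promoters are shown first because TEAD proteins bind the letters GGAATG and because Ccn1 is a textbook target of YAP and TEAD. RefSeq start sites on GRCm38.p6 were given for 7 of the 10 genes, with 11 start sites in all, and were not given for Tead1, Tead4 and Ccn2. The 250 bases before the start are printed 5′ to 3′ on the strand of the gene, with GGAATG or its reverse complement CATTCC in capitals. They lie on the minus strand at chr3:145649986-145650235 (Ccn1), chr3:57575911-57576160 (Wwtr1, the first of 2 start sites) and chr9:8004597-8004846 (Yap1).
Ccn1: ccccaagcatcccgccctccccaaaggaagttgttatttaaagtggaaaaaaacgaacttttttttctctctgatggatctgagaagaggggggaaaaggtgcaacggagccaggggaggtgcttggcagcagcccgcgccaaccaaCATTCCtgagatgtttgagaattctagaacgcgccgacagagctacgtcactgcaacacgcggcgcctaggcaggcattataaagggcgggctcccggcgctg
Wwtr1: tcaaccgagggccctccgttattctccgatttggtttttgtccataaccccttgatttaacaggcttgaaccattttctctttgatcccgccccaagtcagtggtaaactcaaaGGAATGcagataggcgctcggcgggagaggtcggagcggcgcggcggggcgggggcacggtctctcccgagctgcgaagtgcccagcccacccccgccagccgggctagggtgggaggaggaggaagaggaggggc
Yap1: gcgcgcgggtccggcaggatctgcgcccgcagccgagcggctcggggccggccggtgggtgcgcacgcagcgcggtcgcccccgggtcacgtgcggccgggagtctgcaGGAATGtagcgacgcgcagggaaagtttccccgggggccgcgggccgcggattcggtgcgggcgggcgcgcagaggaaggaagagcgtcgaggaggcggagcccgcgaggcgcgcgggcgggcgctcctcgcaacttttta

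Counted from the start site, the motif began at position -103 in Ccn1, on the opposite strand, at -136 from the first start of Wwtr1 and at -141 in Yap1. Counting 50 bases past the start as well, windows of 300 bases held GGAATG on either strand in 5 of the 7 genes (Ccn1, Wwtr1, Yap1, Tead3 and Lats2) and in 7 of their 11 start sites, while the windows of Tead2 and Lats1 did not hold it. Among all 32851 promoter windows of the same length, 14.7% held the motif, and 16.6% of the 27025 genes had it in at least a single window. The windows of Wwtr1 overlap and share their match, and genes with several start sites have more windows in which it can occur. The AP-1 motif TGANTCA, which binds factors that often sit beside TEAD, was in 0 of the 7 genes and in 8.97% of all genes. The CArG box, the binding motif of SRF, was also in 0 of the 7 genes and in 1.81% of all genes. A match to these letters is a description of the sequence and no evidence of binding.

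**Figure D1:**
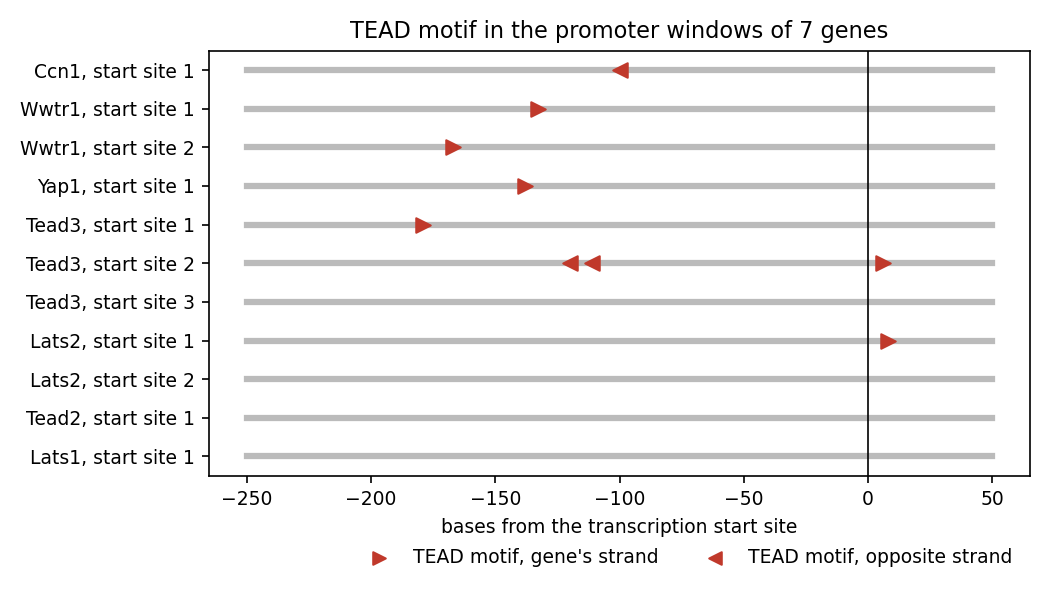
Position of the TEAD motif in the promoter windows of 7 genes, in bases from each transcription start site (vertical line), with 1 grey line per start site from 250 bases before to 50 after. Triangles mark matches on the strand of the gene (pointing right) or on the opposite strand (pointing left): 7 of the 11 windows held at least a single match.

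Library totals lay between 35512739 and 37537463 fragments, as computed from the whole-number steps of the FPKM values. MMK-1 replicate 3 stood apart from the other MMK-1 libraries, with chi-square values over genes of 36.6 and 31.3 per degree of freedom against them, where the other pairs within groups had 2.83 to 4.97. Among the 10 genes it had the lowest MMK-1 value of Tead1, Yap1, Wwtr1 and Lats1 and the highest of Tead2, Lats2 and Ccn2. Fitted values of the 6 genes that pass their filter in control alone are therefore also given without this library, as are the pathway list counts. Epithelial markers were high in every library (Epcam, the epithelial adhesion molecule, at 377 to 415 FPKM). The 7 of them summed to 3355 to 3387 FPKM in control and 2403 to 2594 FPKM with MMK-1, with 3 called higher and 3 lower. The summed FPKM of 9 fibroblast and smooth muscle markers was 1.21 to 1.23 in control and 0.367 to 0.511 in MMK-1 libraries. Leukocyte markers summed to 3.05 to 3.76 in control and 0.955 to 1.82 in MMK-1 libraries, mainly through Cd68, and endothelial markers to 0.106 to 0.221 and 0.127 to 0.307, with Kdr at 0 throughout. Within the epithelium, all 5 stem cell markers were upregulated, from a summed 62.1 to 63.6 FPKM in control to 364 to 393 with MMK-1, and 7 of 8 enterocyte markers were downregulated, from 6856 to 6910 to 4464 to 4815 FPKM. Enteroendocrine markers summed to 187 to 201 and 251 to 271 FPKM, and tuft cell markers to 1.51 to 1.97 and 1.78 to 2.24 FPKM. The epithelial, stem cell, enterocyte, enteroendocrine, leukocyte and fibroblast sums did not overlap between the groups, and their part in the changes of the 10 genes was not tested. In bulk RNA a change in the number of cells of a type and a change in RNA per cell cannot be told apart.

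In control organoids Yap1 had the highest level per length at 16.2 ± 0.241 FPKM (SD, n = 3), followed by Lats1 at 11.99 ± 0.119 and Tead3 at 6.62 ± 0.133. These 3 genes lay apart from each other and from all genes below them. Ccn1 (1.60 ± 0.133) and Tead1 (1.51 ± 0.129) overlapped in range, and Lats2 followed at 0.971 ± 0.0633. The remaining genes were near the limit of detection, with Tead2 at 0.162 ± 0.0917, overlapping Tead4 at 0.0492 ± 0.00992, then Ccn2 at 0.0111 ± 0.0111, with a library at 0, and Wwtr1 at 0 in all 3 control libraries. With MMK-1 the order of the first 3 genes was kept, while Tead1 (4.93 ± 0.398 FPKM) stood above Ccn1 (3.82 ± 0.368), Tead2 (1.32 ± 0.211) above Lats2 (0.709 ± 0.176) and Wwtr1 (0.150 ± 0.00854) above Tead4 (0.0689 ± 0.0277). The ranges of Tead4 and Ccn2 (0.0497 ± 0.00544) overlapped, and no other neighbours in this order did.

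**Figure D2:**
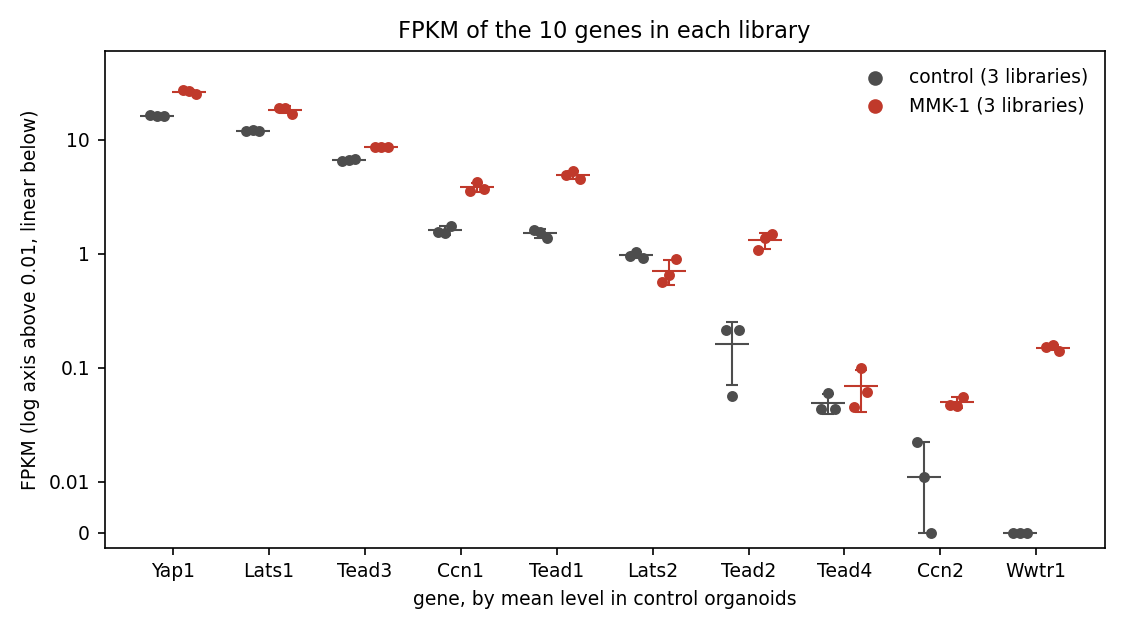
FPKM of the 10 genes in each library, ordered by their mean in control organoids, on a log axis above 0.01 and a linear axis below. Points are libraries, horizontal lines the means and bars the SD (n = 3): the MMK-1 points lie above all control points in 8 genes, below them in Lats2, and overlap them in range in Tead4. Of all genes tested with limma-trend, 5 of the 10 among them, 50.5% had every MMK-1 value above every control value. That share does not cover Tead2, Tead4, Wwtr1, Ccn2 and Lats2, which lay under the filter of that test. No share is given for genes whose MMK-1 values all lay below control.

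The question of the comparison was which genes respond to activation of FPR2. Of the 10 genes, 5 had a mean of at least 1 FPKM over the 6 libraries and entered the limma-trend test on log2(FPKM + 1), a scale that understates the change of low genes. All 5 (Tead1, Tead3, Yap1, Lats1 and Ccn1) were upregulated with adjusted p (Benjamini-Hochberg) up to 0.05, as were 48.5% of the 10551 genes tested, while 24.7% were downregulated. Tead1 alone also passed a fold change of 2 upward on this scale with an unadjusted p of at most 0.05, where 3.39% of the genes tested did. The groups did not overlap in any of the 5, and in 50.5% of all genes tested every MMK-1 value lay above every control value. Calls were thus common in this comparison, and the sizes of the changes carry more than their number. Over all tested genes the log2 fold change had a median of 0.13. Upper-quartile scaling of the libraries moved it to -0.0045 and the upregulated share of called genes from 66.3% to 48.4%. All 5 genes were still called higher with it, as were 3659 of all 10540 genes tested.

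Of the other 5 genes, Tead2, Wwtr1 and Lats2 had at least 10 fragments in at least 3 libraries and were tested with limma-voom on fragments. Tead2 and Wwtr1 were higher and Lats2 lower with MMK-1, where 45.0% of the 13454 genes in that test were called higher and 23.4% lower. Neither Tead2 (19, 5 and 19 fragments) nor Wwtr1 (0 fragments) would have entered this test on the control libraries alone. Both needed the MMK-1 libraries, in which they were high, so their calls add nothing to their values. Their p and fitted fold are not given. Tead4 and Ccn2 were in neither test. The exact permutation test of a single gene cannot give less than p = 0.1 with 3 libraries against 3, and it gave that for every gene but Tead4, at p = 0.2.

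Tead1 is located at chr7:112679318-112906807 on the plus strand of GRCm38. Its FPKM was 1.61, 1.56 and 1.36 in control replicates 1 to 3 and 4.94, 5.32 and 4.52 in MMK-1 replicates 1 to 3, from 505 to 596 and 1664 to 1893 fragments. The lowest MMK-1 library was well above the highest control library. The mean was 3.26-fold higher with MMK-1, and the log2 fold change in limma-trend was 1.24 ± 0.0686 (SE, adjusted p = 7.50e-07). It was 1.12 with upper-quartile scaling and 1.29 without MMK-1 replicate 3.

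Tead2, at chr7:45215753-45233644 on the plus strand, is best known from the early embryo and neural progenitors. Its FPKM was 0.215, 0.0565 and 0.215 in the control libraries (19, 5 and 19 fragments) and 1.09, 1.38 and 1.495 in the MMK-1 libraries (91, 117 and 131 fragments). The groups were far apart, although control replicate 2 rested on few fragments. Summed over libraries, the fragments per total were 8.16-fold higher with MMK-1, with an exact 95% interval of 5.93 to 11.5 that covers counting error only. Without control replicate 2 the ratio was 6.15. An exon of Cd37, a leukocyte gene on the opposite strand, overlaps Tead2, and whether the counting used strand is not given in the sources used here. Cd37 itself had 1 to 4 fragments in every library.

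Tead3, at chr17:28331671-28350817 on the minus strand, had the highest FPKM of the TEAD genes in both groups. It measured 6.47, 6.67 and 6.72 FPKM in control and 8.57, 8.52 and 8.56 FPKM with MMK-1. The groups were apart and the MMK-1 libraries nearly equal, but the change was the smallest of the 5 genes in limma-trend, at 0.33 ± 0.0429 (adjusted p = 1.46e-04). With upper-quartile scaling it was 0.19 (adjusted p = 0.00328), and without MMK-1 replicate 3 it was 0.33. Tead4 (chr6:128224288-128300823, minus strand), which serves in the trophectoderm of the embryo, had 5, 7 and 5 fragments in control and 5, 11 and 7 with MMK-1. Its groups overlapped, and the ratio of 1.40 had an exact 95% interval of 0.716 to 2.79. That interval includes no change, and a change within it could not be detected at this depth.

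Because the genes of the family changed unequally, its make-up differed between the groups. The summed TEAD FPKM was 8.34 ± 0.00716 in control and 14.9 ± 0.394 with MMK-1, 1.78-fold higher. The share of Tead3 fell by 21.8 percentage points, from 79.3 ± 1.53% to 57.5 ± 1.67%. The share of Tead1 was 18.1 ± 1.56% in control and 33.1 ± 1.98% with MMK-1, and that of Tead2 was 1.95 ± 1.10% and 8.88 ± 1.40%. The libraries of the groups did not overlap in these 3 shares (exact permutation p = 0.1 for each, the smallest possible), which do not depend on the scaling between libraries. The share of Tead4 was 0.589 ± 0.119% and 0.460 ± 0.172%, with overlapping groups (exact permutation p = 0.4). Counted in fragments, which favour long transcripts, Tead1 made up 42.2% of the family in control and 62.6% with MMK-1, and Tead3 56.2% and 33.1%, so Tead3 led in both units in control and the leading gene depended on the unit with MMK-1. FPKM, which is per length, is the scale for comparing genes.

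**Figure D3:**
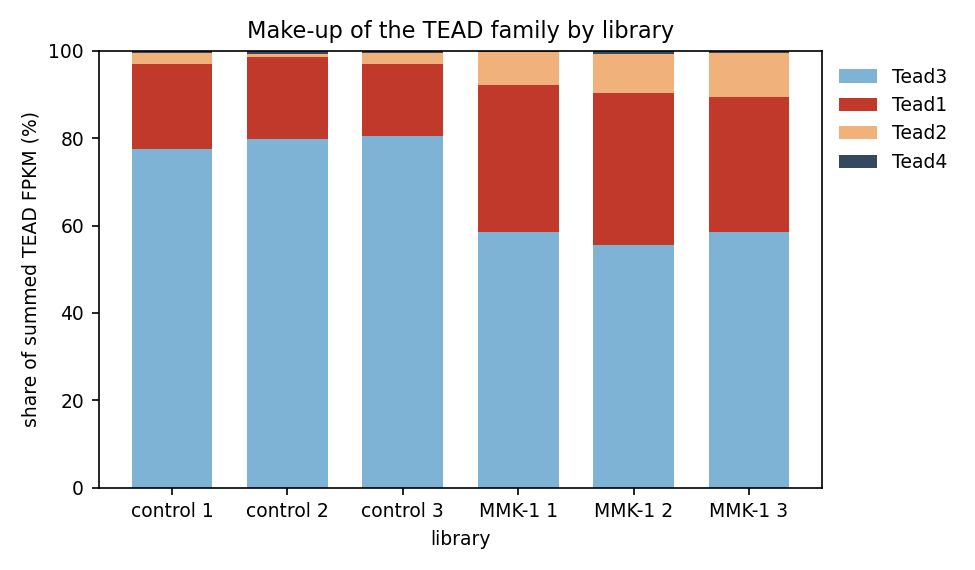
Share of each TEAD gene in the summed TEAD FPKM of each library, in percent. The share of Tead3 is 77.6% to 80.6% in the control bars and 55.6% to 58.6% in the MMK-1 bars, with Tead1 and Tead2 taking up the difference and Tead4 barely visible at the top.

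Yap1, at chr9:7931999-8004596 on the minus strand, encodes the co-activator YAP. It measured 16.4, 16.2 and 15.9 FPKM in control and 26.9, 26.8 and 25.0 FPKM with MMK-1. Every MMK-1 library was above every control library, and the means differed 1.62-fold. The limma-trend log2 fold change was 0.66 ± 0.0446 (adjusted p = 2.35e-06), 0.51 with upper-quartile scaling and 0.70 without MMK-1 replicate 3. Gm20416, on the opposite strand, overlaps an exon of Yap1 and was not analysed here.

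Wwtr1, at chr3:57455649-57575910 on the minus strand, encodes TAZ, the paralog of YAP. It had 0 fragments in each control library and 26, 27 and 25 fragments with MMK-1, or 0.153, 0.157 and 0.141 FPKM. The gene was thus detected in the MMK-1 libraries only, at a low and even level. A count of 0 allows up to 3 fragments in a library, or 0.0167 FPKM, and against this limit the MMK-1 mean of Wwtr1 was at least 8.98-fold higher. Even with MMK-1, Wwtr1 made up 0.570 ± 0.0121% of the summed FPKM of Yap1 and Wwtr1, and Yap1 the rest. The Yap1 level per summed TEAD level was 1.94 ± 0.0302 in control and 1.76 ± 0.0676 with MMK-1, with groups that did not overlap (exact permutation p = 0.1).

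The kinase genes moved in opposite directions. Lats1, at chr10:7681214-7716460 on the plus strand, measured 11.9, 12.1 and 11.9 FPKM in control and 18.9, 19.1 and 16.8 FPKM with MMK-1. All MMK-1 libraries were higher, replicate 3 the least. The mean was 1.52-fold higher and the limma-trend log2 fold change 0.57 ± 0.0548 (adjusted p = 2.19e-05). It was 0.42 with upper-quartile scaling and 0.62 without MMK-1 replicate 3.

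Lats2, at chr14:57689662-57758388 on the minus strand, encodes the second LATS kinase and is itself known as a target of YAP. It had 200, 221 and 195 fragments in control (0.946, 1.04 and 0.924 FPKM) and 114, 132 and 190 with MMK-1 (0.569, 0.651 and 0.906 FPKM). Replicate 3 of MMK-1 lay just under the control libraries, and the other MMK-1 libraries well below them. In limma-voom Lats2 fell by 0.47 ± 0.168 on the log2 scale (adjusted p = 0.0267), by 0.64 with upper-quartile scaling and by 0.67 without MMK-1 replicate 3 (adjusted p = 0.00103). The call was lost without control replicate 2 (adjusted p = 0.0819), MMK-1 replicate 1 (adjusted p = 0.110) or MMK-1 replicate 2 (adjusted p = 0.0827) in limma-voom, and in limma-trend over every gene above 0 (adjusted p = 0.0841). Gm49361, on the same strand, shares exonic bases with Lats2 and was not analysed here. Lats2 made up 7.49 ± 0.382% of the summed LATS FPKM in control and 3.78 ± 1.18% with MMK-1, with no overlap between the groups (exact permutation p = 0.1).

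Ccn1, at chr3:145646976-145649981 on the minus strand and formerly named Cyr61, encodes a secreted integrin ligand and is a common readout of YAP and TEAD. It measured 1.54, 1.51 and 1.75 FPKM in control and 3.51, 4.23 and 3.72 FPKM with MMK-1, from 115 to 133 and 253 to 308 fragments. The groups were clearly apart. The mean was 2.38-fold higher and the limma-trend log2 fold change 0.89 ± 0.0715 (adjusted p = 7.01e-06). It was 0.78 with upper-quartile scaling and 0.90 without MMK-1 replicate 3.

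Ccn2, at chr10:24595442-24598683 on the plus strand and formerly named Ctgf, is the other classical readout, and was close to absent. It had 2, 1 and 0 fragments in control and 4, 4 and 5 with MMK-1. The values did not overlap, and the ratio of the sums was 4.48 with an exact 95% interval of 1.23 to 24.5 that covers counting error only. Ccn1 thus made up 99.3 ± 0.711% of the summed FPKM of both genes in control and 98.7 ± 0.201% with MMK-1. The other CCN genes in the table (Ccn3, Ccn4, Ccn5 and Ccn6) did not exceed 0.014 FPKM in any library, and Ccn3 was at 0 in all 6. Gm15270, which overlaps an exon of Ccn2 on the opposite strand, had at most 2 fragments in a library.

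**Figure D4:**
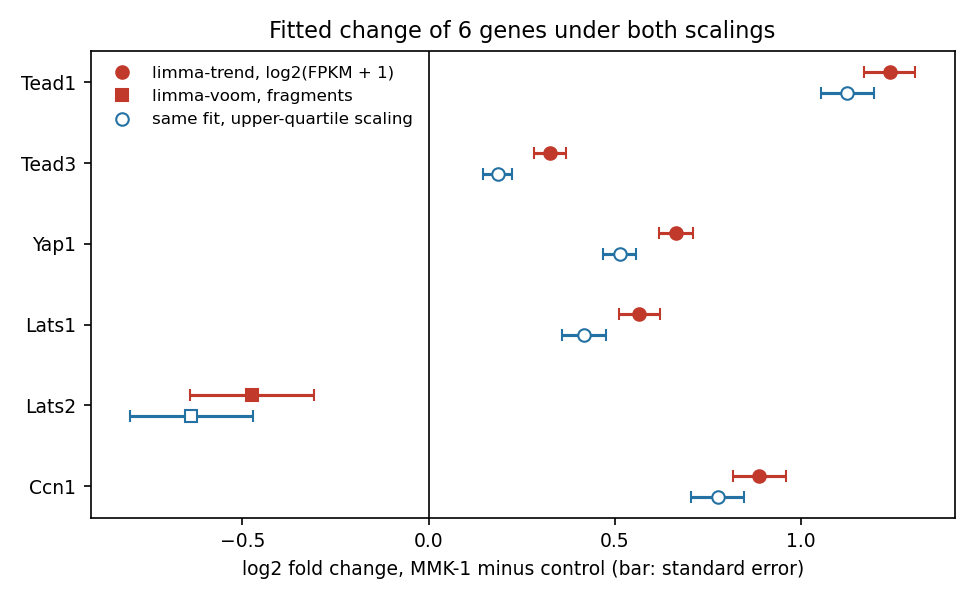
Fitted log2 fold change (MMK-1 minus control, bars are standard errors) of 6 genes as deposited (filled, red) and with upper-quartile scaling (open, blue), from limma-trend (circles) or, for Lats2, limma-voom (squares), whose scales differ. Upper-quartile scaling moves every gene to lower values, from 1.24 to 1.12 in Tead1 and from -0.47 to -0.64 in Lats2, and none crosses 0. Tead2 and Wwtr1, which would not have passed the filter on their control libraries alone, are not shown.

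The genes whose levels followed Tead1 most closely over the 6 libraries were Me1, the cytosolic malic enzyme, Sfxn2 and Klf10, a transcription factor induced by TGF-beta, with a Pearson r of 0.9996, 0.9995 and 0.9992 on log2(FPKM + 1). For Ccn1 they were Gdap2, Ggps1 and Zfp146, with r of 0.999, 0.998 and 0.998. The 6 points of each correlation fall into the same pair of treatment groups, and 2647 and 2337 of the 10550 other genes had an r above 0.95 with Tead1 and Ccn1, so a close match was common.

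Of 23 genes of the kinase cascade (the MST kinases, their scaffolds and other kinases that activate LATS), 19 were tested. Their median log2 fold change was 0.26, against 0.13 for all genes tested. Of the 19, 14 were upregulated, 0 were downregulated and 5 were not called, where 48.5% of all genes tested were upregulated and 24.7% downregulated. At a fold change of 2 and an unadjusted p of at most 0.05, none was called in limma-trend on the log2(FPKM + 1) scale, while 1 was called higher without MMK-1 replicate 3 and 2 of 21 in limma-voom. Over all genes this threshold was passed upward by 358 of 10551, 426 of 10515 and 1415 of 13454 in these fits. The most changed were Mob1b (0.96 ± 0.150), which binds and activates LATS, Stk38l (0.80 ± 0.0445), a kinase related to LATS, and Taok1 (0.58 ± 0.0771), which acts on the MST kinases. Mob1b measured 8.82, 9.56 and 8.52 FPKM in control and 21.6, 21.0 and 13.5 FPKM with MMK-1, replicate 3 being far below the other MMK-1 libraries, and its log2 fold change was 1.16 without that library. The MST kinases changed little, with log2 fold changes of 0.27 for Stk3 and 0.20 for Stk4. With upper-quartile scaling, 7 of the 19 genes were higher, 3 lower and 9 not called, with a median of 0.11. Of all 10540 genes in that fit, 3659 were higher and 3906 lower. The count of the list and the direction of its smaller changes thus depended on the scaling. Without MMK-1 replicate 3, 14 were higher and 0 lower, where 5143 of all 10515 genes were higher and 2960 lower.

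Junction, polarity and binding proteins that hold back or degrade YAP and TAZ formed a further list. Of 25 listed genes, 24 were in the table and 22 tested, of which 13 were upregulated, 2 downregulated and 7 not called (median log2 fold change 0.22), beside the 48.5% of all genes tested that were upregulated. Csnk1e (0.93 ± 0.0511), a casein kinase that marks YAP for degradation, Amot (0.83 ± 0.0485), the angiomotin that tethers YAP at junctions, and Scrib (0.68 ± 0.0510), a polarity scaffold, rose most. Patj, a scaffold of the Crumbs complex at tight junctions, measured 16.02, 16.2 and 15.1 FPKM in control and 9.59, 9.18 and 10.7 FPKM with MMK-1. It fell by 0.64 ± 0.0593 (adjusted p = 1.70e-05), and Btrc, a ubiquitin ligase subunit, fell by 0.17 ± 0.0664. Under upper-quartile scaling the median was 0.07, and 10 were higher and 6 lower, with the named genes keeping their direction. Of all 10540 genes in that fit, 3659 were higher and 3906 lower. Without MMK-1 replicate 3, 15 were higher and 4 lower, where 5143 of all 10515 genes were higher and 2960 lower.

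Proteins that compete with YAP on TEAD or inhibit LATS included Vgll4, a repressor that occupies TEAD in place of YAP. It rose by 0.85 ± 0.0449 (adjusted p = 5.55e-07), from 9.14 ± 0.166 to 17.3 ± 0.643 FPKM. The LIM proteins Wtip and Ajuba, which inhibit LATS, rose by 0.78 ± 0.114 and 0.35 ± 0.0726. Ajuba is also in the list of general targets below, and its mean fell under the filter with upper-quartile scaling. Of 7 listed genes 4 were tested and 3 called, all higher, where 48.5% of all genes tested were higher. Without MMK-1 replicate 3, 3 were tested and 2 called higher, where 5143 of all 10515 genes were higher. The fourth, Limd1, had a log2 fold change of 0.09 (adjusted p = 0.103), and Vgll1 and Vgll3 were at or below 0.0586 FPKM.

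General targets of YAP/TAZ and TEAD formed another list, with the 10 genes themselves left out. Of 19 listed genes, 18 were in the table and only 7 passed the filter on low values. Among these, 4 were upregulated and 1 downregulated (median log2 fold change 0.20), beside 48.5% upregulated and 24.7% downregulated among all genes tested. Crim1, a transmembrane regulator of BMP signals, rose by 0.46 ± 0.0804, Gadd45b, a stress-induced gene, by 0.40 ± 0.0620, and F3, the tissue factor of coagulation, fell by 0.32 ± 0.0709. In limma-voom, which admits lower levels, 12 were tested, 7 higher and 2 lower, where 45.0% of all genes in that test were higher and 23.4% lower. Ankrd1, another classical target, was at 0 in 4 of the libraries and did not exceed 0.0153 FPKM. With upper-quartile scaling 2 of 6 tested genes were higher and 2 lower, with a median of 0.03, where 3659 of all 10540 genes were higher and 3906 lower. The median was 0.05 over every gene above 0 and 0.13 without MMK-1 replicate 3, where 3 of 6 tested genes were higher and 1 lower. Of all 10515 genes in that last fit, 5143 were higher and 2960 lower.

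The last pathway list held genes that YAP raises in the regenerating intestinal epithelium. Of 9 listed genes, 8 were in the table and 3 tested, with 1 higher, 1 lower and 1 not called. Of all genes tested, 48.5% were higher and 24.7% lower. Areg (amphiregulin), an EGF receptor ligand, measured 52.0, 54.0 and 51.9 FPKM in control and 106, 111 and 111 FPKM with MMK-1, and rose by 1.04 ± 0.0393 (adjusted p = 8.22e-08). Clu (clusterin), the marker of revival stem cells, measured 3.07, 2.94 and 3.61 FPKM in control and 0.226, 0.223 and 0.396 FPKM with MMK-1. It fell by 1.71 ± 0.0841 (adjusted p = 3.65e-07), the largest decrease among the genes of these 5 pathway lists in limma-trend. Ereg was not called, at 0.10 (adjusted p = 0.302). Without MMK-1 replicate 3, 4 genes were tested, 2 higher and 1 lower, where 5143 of all 10515 genes were higher and 2960 lower. In limma-voom 7 genes were tested, 3 higher, 1 lower and 3 not called, where 45.0% of all genes in that test were higher and 23.4% lower. Ly6a, which encodes the repair marker Sca-1, and Msln were higher there, at levels of at most 1.64 FPKM. Which libraries carried such low genes past the filter was not examined, so their p and fitted fold are not given.

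**Figure D5:**
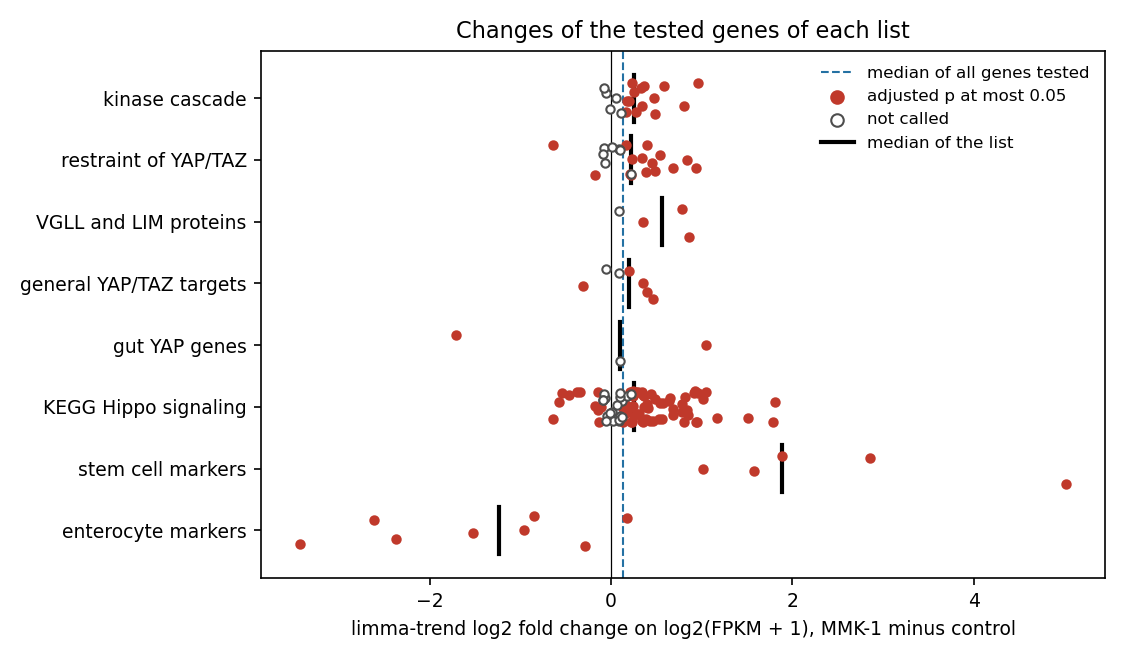
limma-trend log2 fold change of the tested genes of each list (MMK-1 minus control), with filled points for an adjusted p of at most 0.05, open points for genes not called, a black line at the median of the list and a dashed line at the median of all genes tested (0.13). The 5 pathway lists and the KEGG genes scatter mostly between 0 and 1, with Clu far to the left, while stem cell markers lie to the right and enterocyte markers mostly to the left.

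The KEGG annotation in the table gave a wider view. It assigned 144 genes to Hippo signaling, 9 of them among the 10 genes. Of the other 135, 88 were tested, 58 upregulated, 11 downregulated and 19 not called, with a median log2 fold change of 0.25. Of all genes tested, 48.5% were upregulated and 24.7% downregulated. This map also holds Wnt, BMP and TGF-beta genes, and the genes with the largest increases were not core members of the Hippo pathway. They were Axin2 (1.80 ± 0.0503) and Ccnd1 (1.51 ± 0.0526), well-known Wnt targets that encode a feedback inhibitor and a cyclin, and Afp (1.78 ± 0.0849), which encodes alpha-fetoprotein. The largest decreases were those of Patj, given above, Prkcz (-0.58 ± 0.0540), an atypical protein kinase C of the polarity complex, and Dlg3 (-0.54 ± 0.0684), a polarity scaffold. With upper-quartile scaling 42 genes of the map were higher and 18 lower, where 3659 of all 10540 genes were higher and 3906 lower. Without MMK-1 replicate 3, 57 were higher and 14 lower, where 5143 of all 10515 genes were higher and 2960 lower.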

How the data were processed

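RNA of small intestinal organoids was extracted with Trizol, prepared with a VAHTS Universal V10 kit and sequenced by a company. The deposited values are FPKM, which the authors computed as fragments per gene length and library total, and no further scaling is stated. The submitters' processing notes name HISAT2, HTSeq, DESeq2, R 3.2.0 and the build mm10, and the annotation is not given in the sources used here.

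Fragments were recovered from the whole-number steps of the FPKM values, and for all 20676 genes above 0 they were whole within 0.001. In simulated libraries 99.1% of 13439 genes were recovered exactly. The main test was limma 3.58.1 in R 4.3.3 (limma-trend on log2(FPKM + 1), mean FPKM of at least 1). Genes under this filter were tested with limma-voom on fragments (at least 10 in at least 3 libraries, with 0.5 added), and both fits were tested on simulated data. Count tests of other packages were not run on FPKM. Adjusted p-values are Benjamini-Hochberg over all genes tested. Permutation tests were exact and two-sided. Since the labels do not tie samples to separate cultures, p-values measure the spread between these samples, which may be technical. Within groups, libraries differed by more than counting noise. Coordinates are those of GENCODE vM21 on GRCm38, promoters those of RefSeq. Gene levels and intervals were computed in Python 3.11.15.

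The 10 genes, the lists and the tests were chosen with earlier results of these data known, and the study itself had named 3 of the 10 (Tead1, Tead2 and Wwtr1) from these libraries, so their direction is not independent evidence. Named were all 10 genes and, of each pathway list, the called genes that changed most (3 per direction), and for Tead1 and Ccn1 the 3 genes most alike. Lats1 and Lats2 shares, CCN shares, the level of single other list genes (Stk3, Stk4, Limd1, Ereg, Ly6a, Msln), the Tead2 ratio without control replicate 2 and the KEGG list without the 10 genes were added after the values were seen. Alternatives covered scaling, filter, pseudocount, test, replicate block and leaving out each library. Listed genes outside the table (such as Mpp5, Vgll2, Foxf2, Lum and Cdh5) were not analysed here.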

Additional observations from a re-analysis of the deposited data

How the results depend on the processing

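Tead1, Tead3, Yap1, Lats1 and Ccn1 kept their direction and an adjusted p of at most 0.05 in limma under every alternative run. Tead2 and Wwtr1, which would not have passed the filter on their control libraries alone, are left out here. Lats2 did not: its log2 fold change was -0.21 in limma-trend over every gene above 0 (adjusted p = 0.0841) and -0.43 there with a pseudocount of 0.1 (adjusted p = 0.107), an alternative added after seeing the data, and -0.67 to -0.33 when each library was left out of limma-voom. The other ranges with each library left out were 1.19 to 1.29 for Tead1, 0.31 to 0.34 for Tead3, 0.65 to 0.70 for Yap1, 0.53 to 0.62 for Lats1 and 0.83 to 0.93 for Ccn1.

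Over every gene above 0, with either pseudocount, 8 of the 10 genes were called higher, since more were tested. Of all 20676 genes above 0, 5808 were called higher there, and 5859 with a pseudocount of 0.1. The 8 take in Tead2 and Wwtr1, whose calls add nothing to their values, and either Tead4 or Ccn2, at most 11 fragments in a library. In limma-voom 1 of the 10 was called lower, as were 23.4% of all genes in that test. At a fold change of 2 and p of at most 0.05, 358 genes were higher and 385 lower. The higher count was 223 with upper-quartile scaling, 676 with a pseudocount of 0.1, 1415 in limma-voom and 1097 over every gene above 0 with a pseudocount of 0.1, and the lower count was 940 in limma-voom and 818 in the fit last named. Of the 5 pathway lists together, 53 genes were tested, 34 higher and 4 lower, where 5118 of all 10551 genes were higher and 2606 lower. With upper-quartile scaling 22 of the 53 tested were higher and 12 lower, where 3659 of all 10540 genes were higher and 3906 lower. With that scaling the median of the gut YAP genes was -0.11 in place of 0.10, over few genes tested. It was 0.49 without control replicate 1, and 0.031, 0.021 and 0.027 without MMK-1 replicates 1, 2 and 3. Of the KEGG genes 18 were lower with upper-quartile scaling, in place of 11, and 6 to 14 when each library was left out (6 without control replicate 2, 7 without control replicate 3). Over all genes 3906 were lower with that scaling, in place of 2606, and 2347 to 2960 when each library was left out. The difference in share, counted in fragments, was 20.4 points for Tead1, 2.93 for Tead2 and -0.608 for Yap1, where FPKM gave 14.99, 6.94 and -0.570. The causes of these shifts were not tested.

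Same-numbered control and MMK-1 libraries did not deviate together (correlations of -0.0400 to 0.0279). From 3 libraries per group this cannot show whether the samples were paired, and the labels do not say. With a replicate block, adjusted p-values of at most 0.05 were reached by 5024 genes upward and 2543 downward, against 5118 and 2606, and no call changed among Tead1, Tead3, Yap1, Lats1, Lats2 and Ccn1. Depth limits Tead4, Ccn2 and the control level of Wwtr1, each resting on at most 11 fragments in a library.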
